A study of Mus musculus with 8 samples.

Results

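The proteasome is the protease complex that degrades most ubiquitin-tagged proteins of a cell. Its barrel-shaped core particle consists of outer rings of alpha subunits, which gate entry, and inner rings of beta subunits, which hold the cutting sites. A regulatory particle caps the core: its base contains the ATPases that unfold substrates, and its lid removes the ubiquitin chain. When interferon acts on a cell, 3 beta subunits can be exchanged for immune counterparts, and the core can bind the activator PA28 in place of the cap. In liver, proteasomes dispose of damaged and short-lived proteins, and their amount is set in part by transcription factors that respond to proteasome stress.

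The genes described here are the 50 genes, of 19938 measured, whose symbol on the array platform starts with Psma, Psmb, Psmc, Psmd, Psme, Psmf or Psmg. Each gene was read by its brightest probe set among those assigned to 1 symbol. By role, the 50 genes comprised 7 alpha ring subunits, 7 constitutive beta ring subunits, 9 base subunits, 8 lid subunits and 5 immune subunits. A further 3 encode other activators or an inhibitor, 7 encode assembly chaperones, and 2 encode core subunits restricted to other tissues. The remaining 2, Psmc3ip and Psme3ip1, carry the prefix but encode proteins named after a subunit or activator they bind. For 5 of the genes more than 1 probe set was present, and no filter on brightness was applied.

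Liver RNA was compared between 4 adult male mice labelled as Rictor knockouts (Albumin-Cre with Rictor LoxP/LoxP alleles) and 4 adult male controls labelled wild type. All 8 mice were fasted for 16 h and then fed freely for 3 h, and there was 1 Affymetrix Mouse Gene 1.0 ST array per liver. Rictor belongs to mTOR complex 2, a kinase complex that acts on Akt downstream of the insulin receptor, and the comparison asks how refed liver depends on it. The albumin promoter drives Cre in hepatocytes, so other liver cells keep the gene; the labels do not say whether controls carried Cre or a floxed allele.

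All values below are deposited log2 expression values, and a difference is the mean of the knockout-labelled arrays minus the mean of the control arrays. The hepatocyte marker list averaged 13.94 to 13.96 on the knockout-labelled arrays and 13.88 to 13.95 on the control arrays. In whole liver, fewer cells of a type and less RNA per cell cannot be told apart. The probe set for Rictor itself did not separate the groups: it read 9.15, 9.51, 9.68 and 9.47 on knockout-labelled arrays 1 to 4 and 9.47, 9.28, 9.23 and 9.64 on control arrays 1 to 4, a difference of 0.05 (95% confidence interval -0.23 to 0.32, limma adjusted p = 0.936). Whether its probes lie in the deleted part of the gene is not given in the labels, so this value checks neither the deletion nor the labelled genotype. Single arrays weighed on the proteasome genes. Knockout-labelled arrays 1 and 3 were each the highest of their group in 21 of the 50 genes (42.0%), against 30.3% and 20.7% of all genes. Control array 1 was the highest control in 38 (76.0%), against 26.4%. Among the 18 proteasome genes with an unadjusted p under 0.05, knockout-labelled array 1 lay nearer to the control mean than to the rest of its group in 7 and control array 1 nearer to the knockout-labelled mean in 9, while each of the other 6 arrays did so in 0 to 2. Counts are therefore also given with both arrays numbered 1 left out. Because those arrays were picked for lying near the other group, leaving them out lowers p-values and widens separation by construction, and those counts are no support for a difference.

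No proteasome gene passed the test with all arrays weighted equally (limma, adjusted p under 0.05; 0 of 50, against 0.0% of all genes). At an unadjusted p under 0.05, 12 of the 50 were higher in knockout-labelled livers (24.0%), against 3.84% of all genes, and 6 were lower (12.0%), against 6.61%. The 4 arrays of each group did not overlap for 9 genes that were higher and 2 that were lower, against 1.81% and 2.61% of all genes. In all, 27 genes had a higher mean and 23 a lower mean, and the median difference was 0.11, against -0.02 over all genes. Over all 19938 genes, 8585 had a higher and 11353 a lower mean, which is the baseline for the counts of direction below. Higher and lower means occurred side by side within both rings and the base.

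With array weights, which let limma count noisier arrays less, 5 proteasome genes passed. Psma3, Psma4, Psma7 and the assembly chaperone gene Psmg3 were higher (4 of 50, against 1.31% of all genes), and Psmd2 was lower (1 of 50, against 2.23%). The weights ran from 0.47 for knockout-labelled array 1 to 2.31 for control array 2. Knockout-labelled array 1 lay among the controls for Psma4, Psma7 and Psmg3. None of the 5 passed with equal weights, so all of these calls rest on the weighting and are no independent support. Without both arrays numbered 1, 10 were called higher (against 2.39% of all genes) and 3 lower (against 5.08%). Those called higher were Psma1, Psma3, Psma4, Psma7, Psmb1, Psmb10, Psmd4, Psmd9, Psme1 and Psmg3, and those called lower were Psmb2, Psmd2 and Psme3. Leaving out knockout-labelled array 1 alone gave 4 calls higher (against 1.1%) and 3 lower (against 3.3%), while leaving out control array 1 alone gave 1 call, Psma3, which was higher (against 0.231%), and 0 lower (against 0.0652%). At an unadjusted p under 0.05, array weights gave 18 higher and 11 lower, against 7.64% and 12.2% of all genes. Without both arrays numbered 1 there were 20 higher and 12 lower (against 7.18% and 13.0%), and 23 higher and 14 lower genes separated (against 9.15% and 15.6%). Without knockout-labelled array 1 there were 13 higher and 15 lower at that p (against 6.14% and 11.8%), and 13 and 14 separated (against 5.74% and 11.1%). Without control array 1 there were 17 higher and 3 lower (against 4.78% and 7.43%), and 20 and 2 separated (against 4.34% and 5.81%). Centring each array on its median gave 13 higher and 2 lower (against 4.55% and 4.08%), and 5 and 1 separated (against 2.60% and 1.14%).

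**Figure D1:**
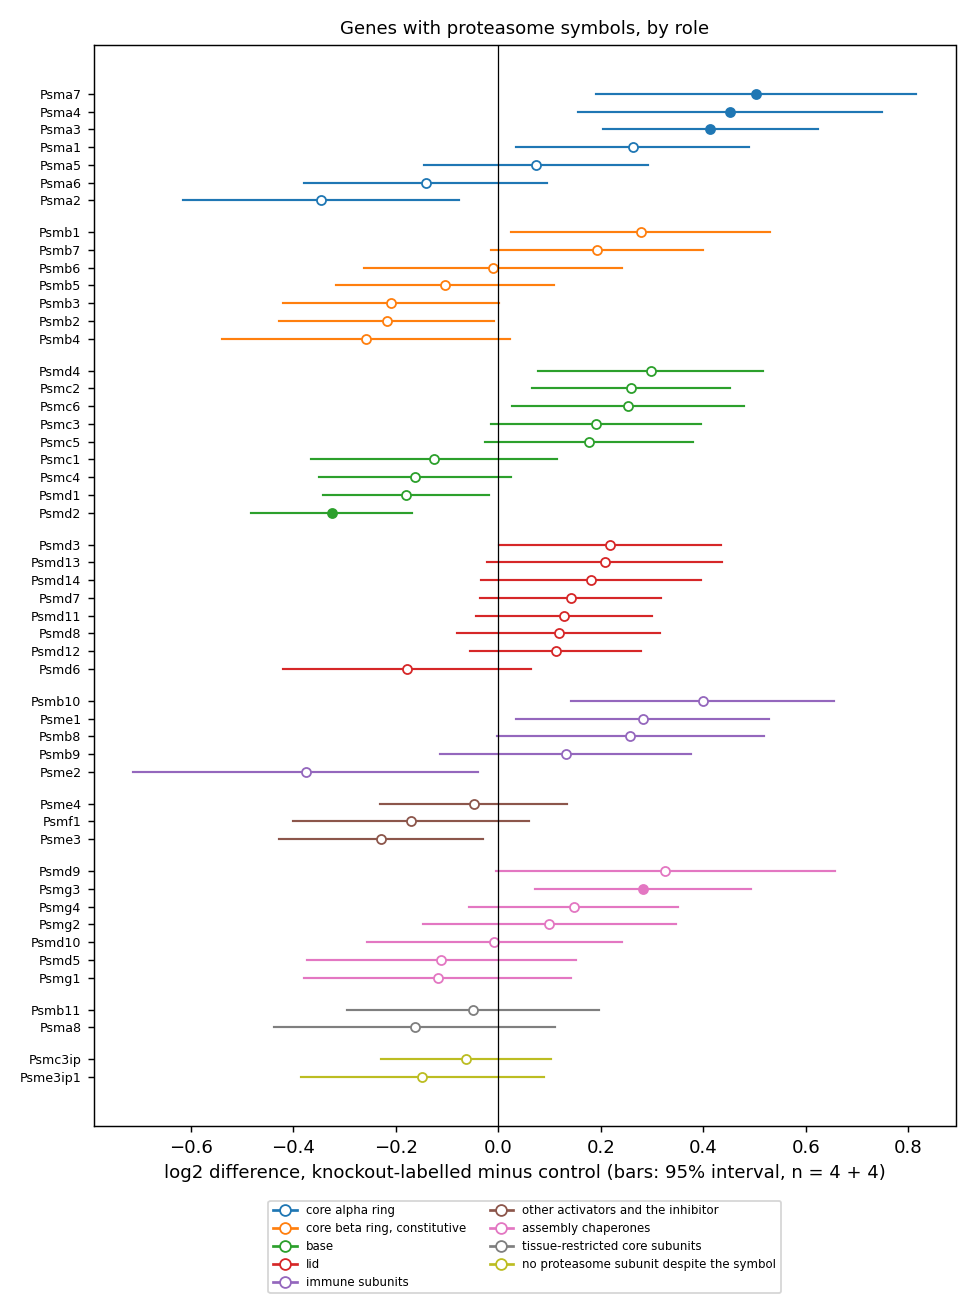
Difference of each proteasome gene (log2, knockout-labelled minus control) with its 95% confidence interval, grouped by role, with filled symbols for genes past the threshold with array weights. The filled symbols to the right of 0 are Psma3, Psma4, Psma7 and Psmg3, the filled symbol to the left is Psmd2, and the genes range from -0.38 for Psme2 to 0.50 for Psma7.

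Promoter stretches of the 5 genes called with array weights are shown to place them on the genome and to let their upstream sequences be compared. Each is the 100 bases before the annotated start, 5′ to 3′ on the gene's strand, from RefSeq on GRCm38.p6, in lower case with nothing marked. The stretches lie at chr12:70974523-70974622 (plus strand, Psma3), chr9:54950759-54950858 (plus, Psma4), chr2:180042465-180042564 (minus, Psma7), chr5:139826895-139826994 (minus, Psmg3) and chr16:20651552-20651651 (plus, Psmd2). G and C made up 52, 72, 76, 61 and 67 of the 100 bases in that order. RefSeq promoters were present for 42 of the 50 genes (46 promoters), with a median of 61.5 G or C in these 100 bases, against 55.0 over all 32851 promoters of the table.
Psma3: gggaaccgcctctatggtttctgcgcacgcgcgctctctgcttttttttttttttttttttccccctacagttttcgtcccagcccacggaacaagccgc
Psma4: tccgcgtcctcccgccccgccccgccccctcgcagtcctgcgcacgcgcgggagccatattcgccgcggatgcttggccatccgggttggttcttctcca
Psma7: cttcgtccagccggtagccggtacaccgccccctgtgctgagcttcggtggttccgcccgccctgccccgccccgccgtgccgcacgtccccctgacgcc
Psmg3: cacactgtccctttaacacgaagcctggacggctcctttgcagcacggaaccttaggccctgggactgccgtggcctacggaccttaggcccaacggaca
Psmd2: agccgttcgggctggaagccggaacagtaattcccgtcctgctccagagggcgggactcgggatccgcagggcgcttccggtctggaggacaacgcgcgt

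The alpha ring held the 3 largest positive differences of the proteasome genes. Of its 7 subunits, 5 had a higher and 2 a lower mean in knockout-labelled livers, with a median difference of 0.26. At an unadjusted p under 0.05, 4 of the 7 were higher and 1 lower, against 3.84% and 6.61% of all genes. Psma3 was the alpha subunit whose arrays separated fully. It read 11.30, 11.56, 11.45 and 11.52 on knockout-labelled arrays 1 to 4, against 11.26, 10.95, 10.93 and 11.05 on control arrays 1 to 4. Every knockout-labelled array lay above every control array, by a narrow margin at the arrays numbered 1. The difference was 0.41 ± 0.10 (SE, n = 4 each; limma adjusted p = 0.149, and 0.0160 with array weights), and the other probe sets of Psma3 gave 0.39 and 0.43.

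Psma4 and Psma7 differed by more than Psma3 but with a wider spread among knockout-labelled livers. Psma4 read 10.51, 10.97, 11.22 and 11.14 in knockout-labelled livers and 10.59, 10.51, 10.41 and 10.53 in control livers. Knockout-labelled array 1 lay among the controls, and the other 3 lay above all of them. Psma4 thus differed by 0.45 ± 0.14 (SE; limma adjusted p = 0.266, against 0.0203 with array weights).

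Psma7 read 9.60, 9.83, 10.25 and 10.02 in knockout-labelled livers and 9.70, 9.32, 9.43 and 9.23 in control livers. The groups overlapped at their arrays numbered 1 and nowhere else. The difference of 0.50 ± 0.14 (SE) was the largest of all 50 genes and had a limma adjusted p of 0.236, against 0.0208 with array weights.

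Psma2 lay on the lower side within the same ring. Its values were 9.73, 9.30, 9.50 and 9.44 on knockout-labelled arrays, against 10.06, 9.92, 9.58 and 9.79 on control arrays. Knockout-labelled array 1 overlapped the lowest control, and the difference was -0.35 ± 0.12 (SE; limma adjusted p = 0.335 with equal weights and 0.0558 with array weights). Among the other alpha subunits, Psma1 had a difference of 0.26 and Psma5 of 0.07, while Psma6 had -0.14. Each overlapped between the groups. Transcripts of subunits that sit in equal number in one ring thus had differences of both signs.

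**Figure D2:**
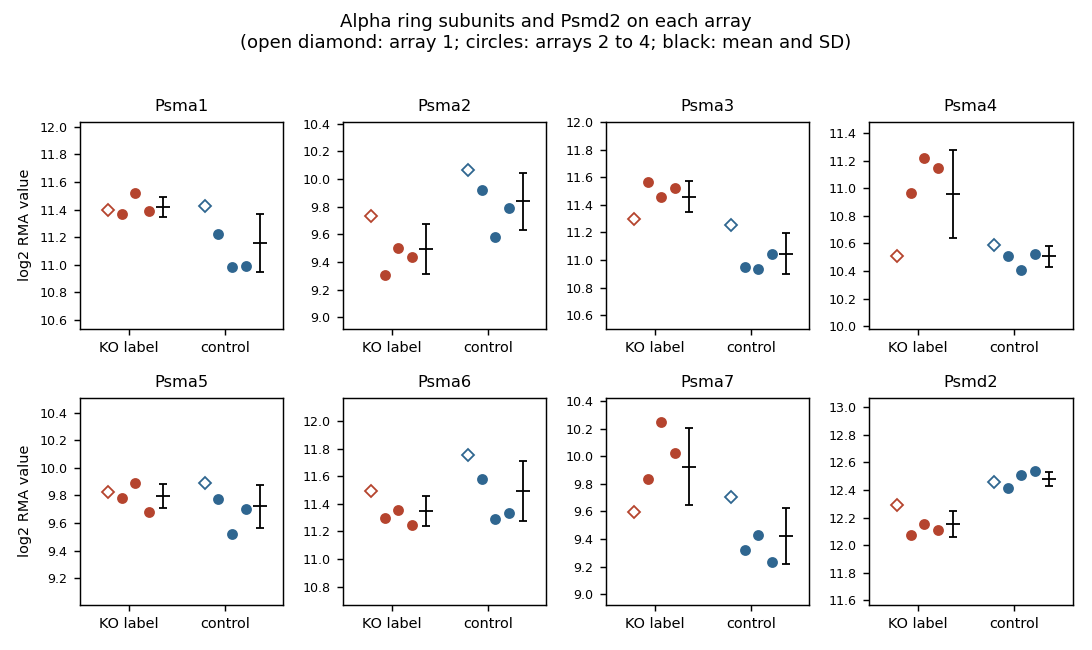
Log2 values of the 7 alpha ring genes and of the base gene Psmd2 on each array, knockout-labelled left and control right, with open diamonds for array 1, circles for arrays 2 to 4, and black bars for mean and SD. Psma3 and Psmd2 separate fully in opposite directions, and for Psma4 and Psma7 the open diamond of the knockout-labelled group lies within the controls.

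The constitutive beta ring lay mostly on the lower side. Of its 7 subunits, 2 had a higher and 5 a lower mean, the median difference was -0.10, and at an unadjusted p under 0.05 there was 1 in each direction (against 3.84% higher and 6.61% lower of all genes). Psmb1, a structural subunit without a cutting site, read 10.22, 10.07, 10.24 and 10.08 in knockout-labelled livers and 10.21, 9.83, 9.78 and 9.68 in control livers. Control array 1 lay among the knockout-labelled values and the other controls lay below all of them. Psmb1 differed by 0.28 ± 0.12 (SE; limma adjusted p = 0.410).

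Psmb2 and Psmb3, also structural, lay on the lower side. Psmb2 read 12.32, 12.01, 11.99 and 11.91 in knockout-labelled livers and 12.42, 12.28, 12.19 and 12.20 in control livers. Psmb3 read 13.38, 13.16, 13.05 and 12.93 in knockout-labelled livers and 13.50, 13.41, 13.23 and 13.23 in control livers. For both genes knockout-labelled array 1 lay within the controls and arrays 2 to 4 lay below them. The differences were -0.22 for Psmb2 (limma adjusted p = 0.438, and 0.0711 with array weights) and -0.21 for Psmb3 (0.461, and 0.0641). Without knockout-labelled array 1 the limma adjusted p was 0.0464 for Psmb2 and 0.0695 for Psmb3. Without control array 1 it was 0.524 and 0.557. Leaving out an array that lies among the other group lowers p by construction, so the lower values are no support. Psmb4 had a similar difference of -0.26 with overlapping groups.

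The constitutive cutting subunits differed little. Psmb5, which carries the chymotrypsin-like site, read 12.59, 12.51, 12.68 and 12.42 in knockout-labelled livers and 12.86, 12.75, 12.58 and 12.42 in control livers. Psmb6, with the caspase-like site, read 10.98, 10.70, 10.80 and 10.60 in knockout-labelled livers and 11.03, 10.82, 10.71 and 10.57 in control livers. The groups overlapped for both, with differences of -0.10 for Psmb5 and -0.01 for Psmb6.

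Psmb7, with the trypsin-like site, read 10.92, 10.98, 11.12 and 11.00 in knockout-labelled livers and 11.01, 10.85, 10.67 and 10.72 in control livers. Control array 1 was higher than 3 of the 4 knockout-labelled arrays, the other controls were lower than all of them, and the difference was 0.19 (95% confidence interval -0.01 to 0.40, limma adjusted p = 0.494).

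The base of the cap also contained both directions. Its 9 subunits split into 5 with a higher and 4 with a lower mean, with a median difference of 0.18, and the arrays of the 2 groups did not overlap for 3 higher and 2 lower genes, against 1.81% and 2.61% of all genes. After each array was centred on its own median, 1 higher and 1 lower base gene separated, against 2.6% and 1.14% of all genes. Psmd2, one of the large scaffold subunits that bind ubiquitin-like domains, had the smallest p of all 50 genes. It read 12.29, 12.07, 12.15 and 12.11 in knockout-labelled livers, against 12.46, 12.42, 12.51 and 12.53 in control livers. All knockout-labelled arrays lay below all control arrays. The difference was -0.33 ± 0.07 (SE, n = 4 each; limma adjusted p = 0.143, against 0.0208 with array weights), and a further probe set of Psmd2 gave -0.32.

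Its partner scaffold Psmd1 was likewise lower without overlap, by -0.18 (limma adjusted p = 0.400). Psmd4, a ubiquitin receptor of the cap, was on the opposite side. It read 10.36, 10.44, 10.63 and 10.38 in knockout-labelled livers and 10.36, 10.10, 10.10 and 10.06 in control livers. Control array 1 alone reached the knockout-labelled range, and the difference was 0.30 ± 0.10 (SE; limma adjusted p = 0.316).

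The ATPases of the base lay on both sides. Psmc2 read 9.84, 9.78, 9.87 and 9.79 in knockout-labelled livers and 9.66, 9.53, 9.64 and 9.43 in control livers. No arrays overlapped, and the difference was 0.26 ± 0.09 (SE; limma adjusted p = 0.320). Psmc3 and Psmc5 also separated, with differences of 0.19 and 0.18, and Psmc6 overlapped with a difference of 0.25. Psmc1 and Psmc4 had lower means, by -0.13 and -0.16, with overlap. A further probe set of Psmc1 gave -0.02, so its 2 readings were not alike in size.

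The lid was the most uniform of the large role groups in direction but not in size. Of its 8 subunits, 7 had a higher mean and 1, Psmd6, a lower one (-0.18), with a median difference of 0.13. The groups did not overlap for 4 lid genes, Psmd3, Psmd7, Psmd11 and Psmd12, whose differences were 0.11 to 0.22, against 1.81% of all genes separated on that side. When each array was centred on its own median, 1 of the 8 lid genes separated, against 2.60% of all genes. At an unadjusted p under 0.05 there was 1 lid gene, Psmd3, with all arrays as deposited (against 3.84% of all genes higher) and 0 after centring (against 4.55%).

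Psmd3, a structural lid subunit, read 10.39, 10.37, 10.64 and 10.37 in knockout-labelled livers and 10.34, 10.12, 10.31 and 10.12 in control livers. Knockout-labelled array 3 stood well above the rest, and the nearest arrays of the 2 groups were almost equal. Psmd13, another structural lid subunit, read 10.39, 10.32, 10.52 and 10.37 in knockout-labelled livers and 10.43, 10.25, 10.07 and 10.02 in control livers.

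Psmd14, the deubiquitinase that removes the ubiquitin chain, read 11.75, 11.55, 11.65 and 11.62 in knockout-labelled livers and 11.71, 11.49, 11.27 and 11.38 in control livers. For Psmd13 and Psmd14 control array 1 lay within or above the knockout-labelled values and the other controls lay below them. Their differences were 0.21 and 0.18, with limma adjusted p = 0.508 and 0.535.

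**Figure D3:**
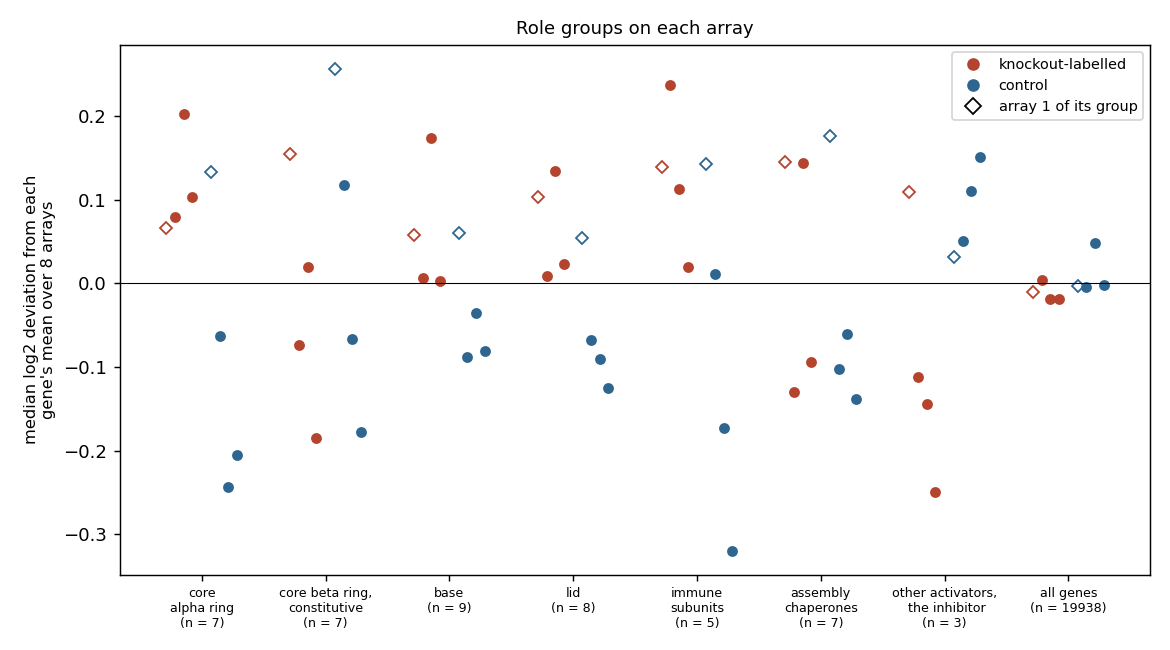
Median deviation (log2) of each role group's genes from their mean over the 8 arrays, by array, knockout-labelled left and control right. Control array 1 lies at 0.13 for the alpha ring, within the knockout-labelled range of 0.07 to 0.20, while control arrays 2 to 4 lie between -0.24 and -0.06.

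Read array by array, the role groups did not order the 2 sets of livers cleanly. The median deviation of the alpha ring from its mean over the arrays was 0.07 to 0.20 in knockout-labelled livers and -0.24 to 0.13 in control livers. For the lid it was 0.01 to 0.13 in knockout-labelled livers and -0.12 to 0.05 in control livers, and for the constitutive beta ring -0.19 to 0.15 in knockout-labelled and -0.18 to 0.26 in control livers. The groups overlapped in each of these, at control array 1 for the alpha ring and the lid. No test was made between role groups, and the 31 core, base and lid genes together had a median difference of 0.13, with 19 higher and 12 lower.

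The immune subunits lay mostly on the higher side, with 1 gene going against the others. Of the 5 genes, 4 had a higher and 1 a lower mean, the median difference was 0.26, and at an unadjusted p under 0.05 there were 2 higher and 1 lower (against 3.84% and 6.61% of all genes). Psmb10, which replaces Psmb7, read 9.27, 9.49, 9.37 and 9.29 in knockout-labelled livers, against 9.23, 9.01, 8.91 and 8.67 in control livers. All knockout-labelled arrays lay above all controls, with control array 1 close below. The difference was 0.40 ± 0.12 (SE, n = 4 each; limma adjusted p = 0.252).

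Psmb8, which replaces Psmb5, read 7.85, 7.95, 7.85 and 7.74 in knockout-labelled livers and 7.89, 7.73, 7.34 and 7.40 in control livers. Psmb9, which replaces Psmb6, read 8.85, 8.78, 8.64 and 8.69 in knockout-labelled livers and 8.78, 8.80, 8.50 and 8.36 in control livers. Control arrays 3 and 4 lay below all knockout-labelled arrays for both genes. Control array 1 overlapped for both and control array 2 for Psmb9, while for Psmb8 it lay marginally below. The differences were 0.26 for Psmb8 (limma adjusted p = 0.465) and 0.13 for Psmb9 (0.727).

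The subunits of the activator PA28 parted. Psme1 read 10.57, 10.70, 10.54 and 10.47 in knockout-labelled livers and 10.57, 10.28, 10.27 and 10.04 in control livers. Psme2 read 11.06, 10.69, 10.54 and 10.58 in knockout-labelled livers and 11.34, 11.37, 10.93 and 10.73 in control livers. Control array 1 lay just above the second-highest knockout-labelled value of Psme1, and knockout-labelled array 1 lay among the controls for Psme2. The differences were 0.28 for Psme1 (limma adjusted p = 0.390) and -0.38 for Psme2 (0.399). A near-identical gene copy, Psme2b, may be read by the Psme2 probe set as well. The probe set that names both symbols was not tested and had a difference of -0.25 with overlapping groups.

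**Figure D4:**
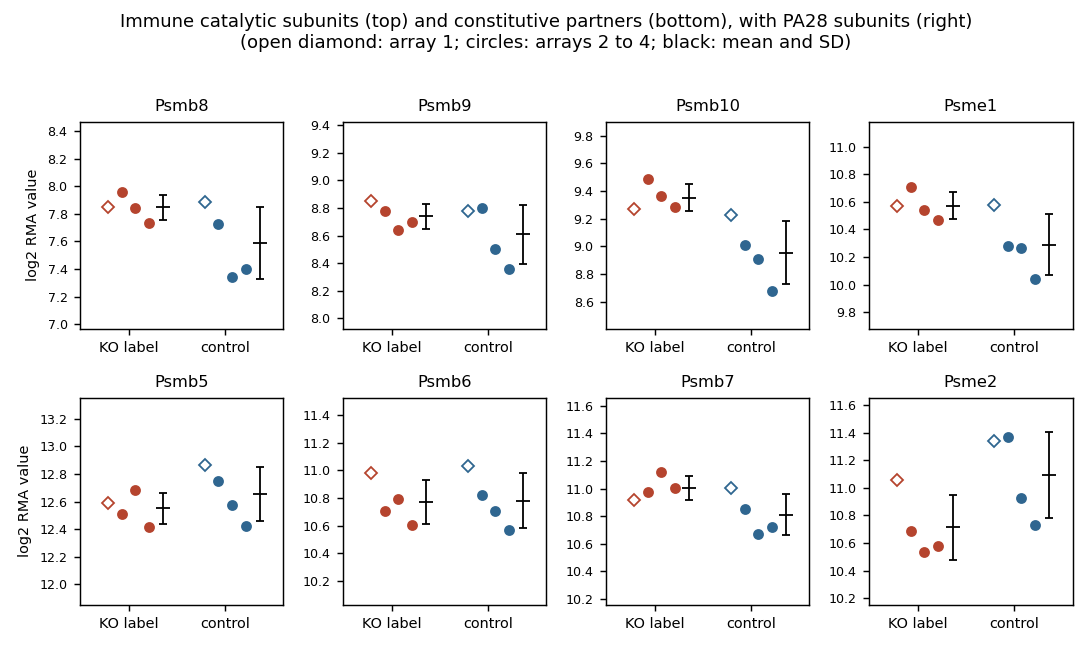
Log2 values of the 5 immune subunit genes and of the constitutive partners Psmb5, Psmb6 and Psmb7 on each array, knockout-labelled left and control right, with open diamonds for array 1, circles for arrays 2 to 4, and black bars for mean and SD. Psmb10 separates fully, and Psme1 and Psme2 lie on opposite sides.

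Differences between partner genes were also taken within each array, which removes what the partners share on that array, in a test added after the values were seen. Psmb8 minus Psmb5 was -4.74, -4.55, -4.84 and -4.68 in knockout-labelled livers, against -4.98, -5.02, -5.23 and -5.03 in control livers. The groups did not overlap and differed by 0.36 (exact two-sided permutation test p = 0.0286, the smallest that 4 against 4 arrays allow, and 0.0429 after adjustment over the 3 catalytic pairs). Psmb10 minus Psmb7 differed by 0.21 with the same exact p values and no overlap, since it was -1.75 to -1.49 in knockout-labelled livers and -2.05 to -1.77 in control livers. Psmb9 minus Psmb6 differed by 0.14 with overlap (exact permutation p = 0.171, and 0.171 adjusted). The adjustment does not correct for choosing the test with the values known, so the p-values of these pairs are no support for a difference.

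Psme1 minus Psme2 is given as a description with no test, because the opposite signs of these genes prompted the pairing. It was -0.49, 0.02, 0.01 and -0.11 in knockout-labelled livers and -0.76, -1.09, -0.66 and -0.69 in control livers. Again no arrays overlapped, and the difference was 0.66. Values of different probe sets are not comparable as levels. On these arrays the within-array difference separated the groups for Psmb8 with Psmb5 and for Psmb10 with Psmb7, and not for Psmb9 with Psmb6. For Psmb10 with Psmb7 the margin was narrow, at -1.75 on knockout-labelled array 3 and -1.77 on control array 3.

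**Figure D5:**
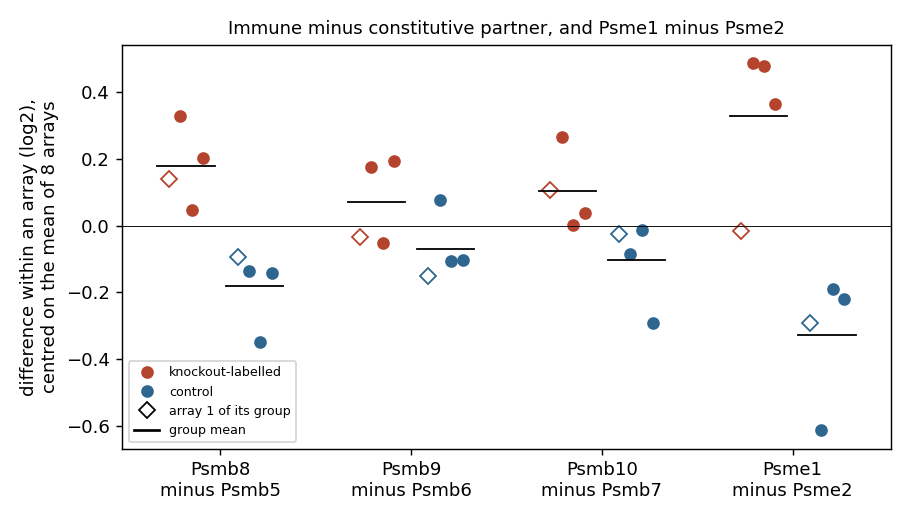
Within-array difference of log2 values for 4 partner pairs, knockout-labelled left and control right, with a point per array. The groups separate for Psmb8 minus Psmb5, Psmb10 minus Psmb7 and Psme1 minus Psme2, and overlap for Psmb9 minus Psmb6.

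Immune subunits are expressed most strongly in blood-derived cells, so markers of those cells are given beside them. The Kupffer cell and macrophage list averaged 9.25 to 10.14 on knockout-labelled arrays and 9.04 to 9.83 on control arrays, and 8 of its 10 measured genes had a higher mean in knockout-labelled livers. The lymphocyte list averaged 6.01 to 6.19 on knockout-labelled and 6.11 to 6.42 on control arrays, with 0 of 8 genes higher and 7 of 8 below the median of all probe sets. The list of other leukocytes averaged 7.10 to 7.69 on knockout-labelled and 7.22 to 7.63 on control arrays, with 5 of 10 genes higher (3 with array weights and 7 without control array 1). Their part in the immune subunit values was not tested.

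The interferon and antigen presentation genes lay on both sides. Of the 13 measured genes of that list, 6 had a higher and 7 a lower mean, the median difference was -0.03, and at an unadjusted p under 0.05 there was 1 in each direction (against 3.84% higher and 6.61% lower of all genes). With array weights 4 were higher and 9 lower, and without control array 1 there were 7 higher and 6 lower. Erap1, which trims peptides for antigen presentation in the endoplasmic reticulum, read 9.53, 9.68, 9.79 and 9.86 in knockout-labelled livers and 9.34, 9.37, 9.45 and 9.50 in control livers. The groups did not overlap, and the difference was 0.30 ± 0.10 (SE; limma adjusted p = 0.291 with equal weights and 0.0377 with array weights). Tapbp, which helps load peptides onto class I molecules, had a difference of -0.23 (limma adjusted p = 0.409).

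The other activators and the inhibitor lay on the lower side, 3 of 3 with a median difference of -0.17. Psme3, the nuclear activator of the PA28 family, read 11.60, 11.33, 11.32 and 11.24 in knockout-labelled livers and 11.52, 11.56, 11.68 and 11.65 in control livers. Knockout-labelled array 1 lay among the controls and the other 3 lay below them. The difference was -0.23 (limma adjusted p = 0.389).

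Psmf1, a proteasome inhibitor, read 11.22, 10.98, 10.90 and 10.73 in knockout-labelled livers and 11.25, 11.09, 11.11 and 11.05 in control livers. Psme4, a large activator of the core, read 11.82, 11.75, 11.87 and 11.90 in knockout-labelled livers and 11.71, 11.84, 11.97 and 12.01 in control livers. Both overlapped between the groups, with differences of -0.17 and -0.05.

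Assembly chaperones build the core and the cap and leave the finished particle. Of the 7, 4 had a higher and 3 a lower mean, with a median difference of 0.10 and 1 higher at an unadjusted p under 0.05 (against 3.84% of all genes). Psmg3 read 6.85, 7.18, 7.20 and 7.25 in knockout-labelled livers and 6.92, 6.80, 6.73 and 6.90 in control livers. Knockout-labelled array 1 lay among the controls and the other 3 lay above them. The difference was 0.28 ± 0.10 (SE; limma adjusted p = 0.318 with equal weights and 0.0365 with array weights), in a probe set close to the arrays' median brightness.

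Psmg4, the partner of Psmg3 in the core assembly pathway, read 7.79, 7.91, 8.11 and 7.91 in knockout-labelled livers and 7.93, 7.71, 7.79 and 7.70 in control livers, with overlap and a difference of 0.15. Psmg1 read 9.57, 9.17, 9.24 and 9.03 in knockout-labelled livers and 9.51, 9.43, 9.26 and 9.28 in control livers, a difference of -0.12. Psmg2, its partner, read 9.67, 9.22, 9.45 and 9.26 in knockout-labelled livers and 9.45, 9.25, 9.29 and 9.21 in control livers, a difference of 0.10. The 4 core chaperones thus included both signs.

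Psmd9, a chaperone of the base, read 8.62, 8.97, 9.14 and 8.74 in knockout-labelled livers and 8.97, 8.48, 8.38 and 8.33 in control livers. Control array 1 lay just above the second-highest knockout-labelled value and the other controls lay below all of them. The difference was 0.33 (limma adjusted p = 0.466). The base chaperones Psmd5 and Psmd10 had differences of -0.11 and -0.01.

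The tissue-restricted core subunits were dim. Psma8, a testis subunit, averaged 5.45 in knockout-labelled and 5.61 in control livers, and Psmb11, a thymus subunit, averaged 6.22 in knockout-labelled and 6.27 in control livers, below the median of every array. Psmc3ip was similarly dim, with a difference of -0.06, and Psme3ip1 had a difference of -0.15. The groups overlapped for these 4 genes.

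Proteins that work with the proteasome under other symbols were read from a list of 17 genes, 14 of them measured. Of these 9 had a higher and 5 a lower mean, and at an unadjusted p under 0.05 there were 4 higher and 1 lower, against 3.84% and 6.61% of all genes. Sem1, the small lid subunit without the prefix, read 8.52, 8.69, 8.80 and 8.98 in knockout-labelled livers, against 8.55, 8.27, 8.15 and 8.12 in control livers. Control array 1 lay just above knockout-labelled array 1, and no other arrays overlapped. The difference was 0.47 ± 0.12 (SE; limma adjusted p = 0.208, against 0.0208 with array weights). Pithd1 had a difference of 0.33 (limma adjusted p = 0.315), with 1 knockout-labelled array inside the control range.

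Pomp, the maturation factor that places the beta subunits, was named after its values were seen because it was the list's only gene on the lower side at an unadjusted p under 0.05. It read 10.63, 10.36, 10.39 and 10.24 in knockout-labelled livers and 10.97, 10.94, 10.63 and 10.52 in control livers. Knockout-labelled array 1 overlapped the lower controls, and the difference was -0.36 (limma adjusted p = 0.317, and 0.0423 with array weights).

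The regulators of proteasome genes were split, with 5 of 11 measured genes higher, 6 lower and a median difference of -0.01. Nfe2l2, a transcription factor of the oxidative stress response, read 11.94, 11.54, 11.84 and 11.63 in knockout-labelled livers and 12.09, 11.98, 11.92 and 12.11 in control livers. Knockout-labelled array 1 lay just above the lowest control and the others lay below, with a difference of -0.29 (limma adjusted p = 0.313, against 0.0712 with array weights). Nploc4, which helps extract ubiquitinated proteins for degradation, had a difference of -0.27 (limma adjusted p = 0.303, and 0.0406 with array weights).

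Of the ubiquitin list, 11 of 16 genes were measured: the activating enzyme gene Uba6 and 10 conjugating enzyme or variant genes of the Ube2 family, with no ubiquitin gene among them. Of the 11, 9 had a lower and 2 a higher mean, with a median difference of -0.10, against 11353 lower and 8585 higher of all 19938 genes. At an unadjusted p under 0.05 there were 0 higher and 1 lower, against 3.84% and 6.61% of all genes. Ube2r2 and Ube2d1, both conjugating enzymes, had differences of -0.18 and -0.19 with overlapping groups (limma adjusted p = 0.436 and 0.496).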

How the data were processed

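The authors deposited 1 value per probe set and array, taken here as log2 values because of their range. RMA, Partek and Affymetrix Expression Console are named in the submitters' processing notes. The log base and the genome build of the probe sets are not given in the sources used here. RMA evens out the arrays and compresses differences of dim probe sets, and precision is limited by the number of arrays. The medians of the deposited arrays over all probe sets still differed, from 6.90 on knockout-labelled array 1 to 7.03 on knockout-labelled array 4.

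Of 35556 probe sets, 21789 had 1 gene symbol and entered the fit, 1621 had several and 12146 had none. Symbols were updated by Entrez identifier through RefSeq for 21698. The difference was fitted with limma 3.58.1 in R 4.3.3 (lmFit, eBayes with a mean-variance trend, all 8 arrays, no covariate) and adjusted by Benjamini-Hochberg over all fitted probe sets. Counts over all genes use 1 probe set per gene. The procedure was tested on simulated data.

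Members, role groups and gene lists were chosen with earlier results of these data known, and no p is given for a list. Values on every array are given for the immune subunits and their partners, the 3 smallest p of each role group, genes called with array weights and Psmg1 to Psmg4. The 2 smallest p of each list of related genes are also named. Of 91 genes on those lists, 73 were measured. Correlations between arrays were 0.991 to 0.996, and each array counted as 1 sample. Over all fitted probe sets, same-numbered arrays did not deviate together (correlations -0.0930, -0.125, -0.0400 and 0.0738), so they were not paired. Such correlations were not taken over the proteasome genes alone. Both arrays numbered 1 lay high for these genes. Their median deviation from the gene means over all arrays was 0.097 on the knockout-labelled array and 0.103 on the control array. At each of the other numbers the median was above 0 on the knockout-labelled array and below 0 on the control array. Alternatives are given in the closing section.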

Additional observations from a re-analysis of the deposited data

Results flagged for a closer look

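Among 96 groups of 4 arrays checked, 3 held an array whose gap to its nearest neighbour exceeded Dixon's 95% critical value for 4 samples, as a share of the group's range. Chance gives about 1 such group in 20. Psmd4 read 10.36 on control array 1, with the nearest other control at 10.10 (gap 0.865 of the range). Psmd3 read 10.64 on knockout-labelled array 3, with the nearest other knockout-labelled array at 10.39 (0.908). Nploc4 read 12.79 on knockout-labelled array 1, with the nearest at 12.48 (0.948). Each of these arrays was the highest of its group. The check did not cover every proteasome gene. The dim gene Psma8, which it left out, read 5.88 on knockout-labelled array 4, against 5.35, 5.27 and 5.30 on knockout-labelled arrays 1 to 3.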

How the results depend on the processing

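The 28 proteasome genes given with values on every array by the rule, and 12 named genes of related lists, were refitted under 19 alternatives (a second probe set existed for 4 of these 40). All but Psmb6, at -0.01 as deposited, kept their direction. Of the other members, leaving out 1 array turned the sign of Psmd10 (-0.06 to 0.06) and Psmb11 (-0.16 to 0.05). Psmb6 was 0.0062 after median centring, -0.0831 to 0.0727 when 1 array was left out (above 0 without knockout-labelled array 2 or 4 or control array 1 or 2), and 0.0021 without both arrays numbered 1. Counts depended on the arrays and their scaling. Members called higher were 0, against 4 with array weights, 0 to 4 when 1 array was left out and 10 without both arrays numbered 1; members called lower were 0, against 1, 0 to 3 and 3. At an unadjusted p under 0.05, 12 were higher, against 8 to 17 when 1 array was left out and 20 without both arrays numbered 1. Those lower were 6, against 11 with array weights, 2 after median centring, 1 to 15 when 1 array was left out and 12 without both. Median centring thus gave 13 higher and 2 lower (86.7% higher, against 66.7%), and over all genes 907 higher and 814 lower, against 766 and 1318. Members that separated were 9 higher and 2 lower, against 5 and 1 after median centring, 9 to 20 and 2 to 14 when 1 array was left out, and 23 and 14 without both arrays numbered 1. Of the fits that left out 1 array, that without control array 1 gave the 17 and 20 on the higher side, and that without knockout-labelled array 1 the 15 and 14 on the lower side. The cause was not tested. With the replicate block, 0 members were called, and 13 were higher and 8 lower at an unadjusted p under 0.05. The share of all genes was not counted for that fit, so its counts have no baseline here. The medians of the 7 role groups with 3 or more genes kept their sign in each alternative run but not their size. The alpha ring ran from 0.20 without control array 3 to 0.36 without both arrays numbered 1, against 0.26. The immune subunits ran from 0.18 without control array 3 to 0.36 without control array 1, against 0.26. The base ran from 0.13 without control array 4 to 0.23 without both arrays numbered 1, against 0.18. The lid ran from 0.11 without knockout-labelled array 3 to 0.17 without control array 1, against 0.13. The assembly chaperones moved to 0.009 without knockout-labelled array 1, 0.15 without knockout-labelled array 2 and 0.15 without control array 1, against 0.10. The constitutive beta ring moved to -0.06 without knockout-labelled array 4, -0.03 without control array 1 and -0.18 without control array 4, against -0.10. The other activators and the inhibitor moved to -0.26 without knockout-labelled array 1 and -0.09 without knockout-labelled array 4, against -0.17. The median of all 50 genes was 0.07 with array weights and 0.07 without control array 4, against 0.11. Identity between catalytic partner proteins was not run, and the planned search of promoters for a motif is not reported, because no file used here supplies the proteins or the motif. Differences of dim probe sets such as those of Psma8 and Psmb11 are limited by signal over background.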

Other observations

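Genes next to the proteasome in protein quality control were also read. Among 13 ubiquitin ligases of tissue atrophy and insulin signalling, 6 had a higher and 7 a lower mean in knockout-labelled livers, with 0 higher and 1 lower at an unadjusted p under 0.05, against 3.84% and 6.61% of all genes. Skp2, a substrate receptor of a cell cycle ligase, read 7.84, 7.58, 7.73 and 7.83 in knockout-labelled livers and 7.88, 7.99, 8.20 and 8.12 in control livers. The groups did not overlap, and the difference was -0.30 (limma adjusted p = 0.291). Cblb, a ligase that restrains receptor signalling, had a difference of -0.25 with overlap.

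Among 11 cytosolic chaperones, 5 had a higher and 6 a lower mean, with 2 higher and 0 lower at an unadjusted p under 0.05, against the same shares of all genes. The direction of this list depended on the weighting. With array weights 9 were higher and 2 lower, and the median difference was 0.08, against -0.02 with equal weights. Cct2, a subunit of the ring chaperonin that folds actin and tubulin, read 12.36, 12.18, 12.35 and 12.26 in knockout-labelled livers and 12.16, 12.05, 12.12 and 12.09 in control livers. The groups did not overlap, and the difference was 0.18 (limma adjusted p = 0.384). Hsp90aa1, a heat-inducible chaperone, had a difference of 0.22 with overlap (limma adjusted p = 0.437).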
